A study of Bubalus bubalis with 36 samples.

Results

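MicroRNA counts of pericardial adipose tissue (PCAT), the fat on the sac around the heart, were set against those of perirenal adipose tissue (PRAT), the fat around the kidney, in the water buffalo (Bubalus bubalis). The comparison took the 6 PCAT and the 6 PRAT libraries, 12 of the 36 in the series, and paired them by the buffalo number that the labels give. Every row of the count table with a name entered, 1682 in all, of which 695 carried a microRNA (miRNA) name and 987 were candidate loci known only by an identifier. A filter on low counts left 548 rows to test, 343 with a miRNA name and 205 candidate loci. The study sampled the same 6 animals at 6 fat depots, and the other 24 libraries (omental, back, sternal and inguinal fat) are used here only to place the levels of PCAT and PRAT. Both groups were untreated tissue of animals that were weaned at 3 months, fed for fattening from 15 months and killed at 20 months of age, and the labels give the groups no difference other than the depot and the library letter described below. RNA came from pieces of whole fat, so the libraries mix adipocytes with vessels, blood, nerves and stroma.

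MiRNAs are short RNAs that are cut from hairpin precursors and lower the output of messenger RNAs that pair with their seed. Some lie inside gene clusters that mark a position in the body: the miR-10 and miR-196 genes sit within the HOX clusters, whose genes are switched on along the head-to-tail axis of the embryo and stay on in adult fat and stroma according to where the tissue formed. Others are read from imprinted regions such as DLK1-DIO3, where in mammals a large group of miRNAs is transcribed from the maternal chromosome only.

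The table gave whole read counts. Library totals ran from 11767206 to 13377988 counts in PCAT and from 9484589 to 13704623 in PRAT. Levels are given as counts per 1000000 of the scaled library (CPM), and differences as log2 PCAT minus PRAT, so that a positive value means more in pericardial fat. Each library name holds 1 of the letters A and B, which the labels leave unexplained. PCAT of buffaloes 2 and 5 and PRAT of buffaloes 1, 2 and 4 carried the letter A, and all others the letter B. The median correlation of log2 CPM between libraries was 0.951 within PCAT, 0.935 within PRAT and 0.930 between the depots. In whole tissue, fewer cells of a type and less RNA per cell cannot be told apart.

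In edgeR, whose calls are meant wherever no other tool is named, 17 of 548 rows differed between the depots at an adjusted p under 0.05 (3.10%). Of these, 4 rose in PCAT (0.730%) and 13 fell (2.37%), and each of the 17 differed by at least 2-fold. The falls were led by the miRNAs of the HOX clusters, and the rises included 2 miRNAs of the DLK1-DIO3 region and the adipogenic miR-148a. All 6 PCAT libraries lay outside the range of the 6 PRAT libraries for 25 rows (4.56%), above it for 12 (2.19%) and below it for 13 (2.37%). An unadjusted p under 0.05 was reached by 124 rows, 70 higher and 54 lower in PCAT. The median difference over all tested rows was 0.08 with TMM factors, −0.04 with RLE factors and 0.16 with library totals alone, so differences of about that size carry no direction of their own.

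The number of calls depended on the animals and on the library letter. Without buffalo 2 there were 52 calls, which included all 17, and without any 1 of the others there were 6 to 13. With the letter as a covariate there were 6 calls, all lower in PCAT: the 4 HOX-cluster miRNAs and 2 candidate loci. The 4 rows that rose were then at log2 differences from 1.43 for miR-148a to 2.74 for miR-3578, with adjusted p-values of 0.0621 to 0.0819. Letter B libraries alone gave 31 calls, 25 of them higher in PCAT, and letter A libraries alone gave 1. Over all 12 libraries DESeq2 called 92 rows and limma 21, the totals beside which their calls in each list are to be read.

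**Figure D1:**
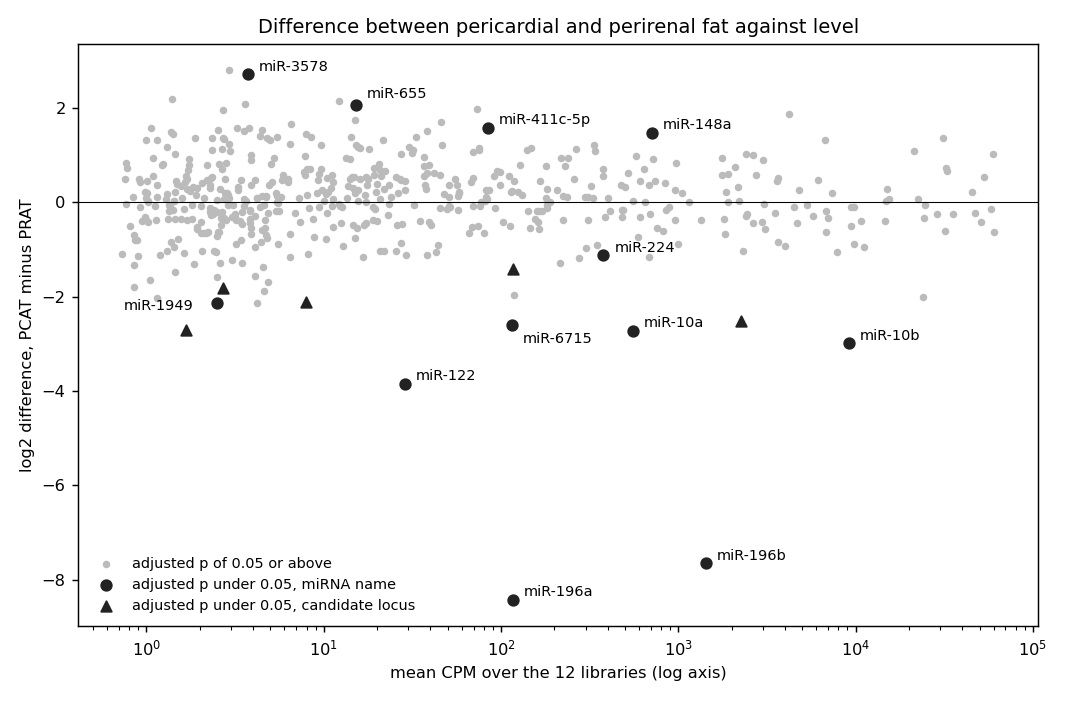
Log2 difference, PCAT minus PRAT (vertical), against the mean CPM over the 12 libraries (horizontal, log axis) for the 548 rows tested. Black circles are miRNA names and black triangles candidate loci with an adjusted p under 0.05, grey points are all other rows. miR-196a and miR-196b lie apart from all others, at −8.42 and −7.65.

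Within the HOX clusters the pair miR-196a and miR-196b was close to absent from pericardial fat and abundant in perirenal fat. The lowest, median and highest levels of miR-196b were 7.69, 11.4 and 40.2 CPM in PCAT, against 1698, 2661 and 5163 CPM in PRAT. Its level was 201-fold lower in PCAT, a log2 difference of −7.65 ± 0.40 (SE, 6 pairs, adjusted p = 6.19e-06). Buffalo 2 had the highest PCAT level and buffalo 6 the highest PRAT level, and the groups were far from overlapping. For miR-196a the levels were 0.0737, 0.660 and 1.82 CPM in PCAT, against 146, 226 and 391 CPM in PRAT. These levels rest on 60 reads over the 6 PCAT libraries, between 1 and 26 in each, against 15641 over the 6 PRAT libraries. The log2 difference was −8.42 ± 0.79 (adjusted p = 5.71e-04), 343-fold lower, with a fold that the few PCAT reads make uncertain. The mature forms of miR-196a and miR-196b are near-identical, so reads of one may have been counted for the other, and the fall of the pair is firmer than that of either member.

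The miR-10 pair, whose members sit beside HOX4 genes, fell by less. MiR-10b had a lowest, median and highest level of 1041, 2330 and 2897 CPM in PCAT, against 9517, 16068 and 24104 CPM in PRAT. It was thus among the more abundant miRNAs of both depots while being 7.94-fold lower in PCAT (−2.99 ± 0.32, adjusted p = 8.28e-04). MiR-10a reached 68.7, 148 and 199 CPM in PCAT, against 429, 866 and 1653 CPM in PRAT, which is 6.59-fold lower (−2.72 ± 0.27, adjusted p = 6.36e-04). No PCAT library reached the range of the PRAT libraries for either miRNA, and both were lower in PCAT in 6 of 6 animals. As with the miR-196 pair, reads of the near-identical miR-10a and miR-10b may have been split between them.

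The remaining member, miR-615, which lies in the HOXC cluster, was too rare to test. It had 0, 4, 0, 0, 0 and 0 reads in PCAT of buffaloes 1 to 6, against 20, 3, 0, 9, 4 and 2 reads in PRAT. The 4 tested members together summed to between 1240 and 3104 CPM in PCAT, against 11797 to 28438 CPM in PRAT. Their median difference was −5.32, beside 0.08 over all rows tested, and 4 of 4 were called lower.

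The fall of the 4 HOX-cluster miRNAs kept its direction with each animal left out and within each library letter. Each was called with any 1 of the 6 animals left out. Among letter B libraries alone (4 PCAT and 3 PRAT) all 4 were called, with miR-196b at −7.99, miR-196a at −8.37, miR-10b at −2.97 and miR-10a at −2.40. Among letter A libraries alone (2 PCAT and 3 PRAT) the differences were −6.98, −8.11, −2.94 and −3.01 in the same order. There miR-196a alone passed the threshold, at an adjusted p of 0.0190. In the 3 animals whose libraries share a letter the differences were −7.41, −7.90, −2.50 and −2.62 in that order. Only miR-196b was called there, at an adjusted p of 0.0416, with the others at 0.206.

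**Figure D2:**
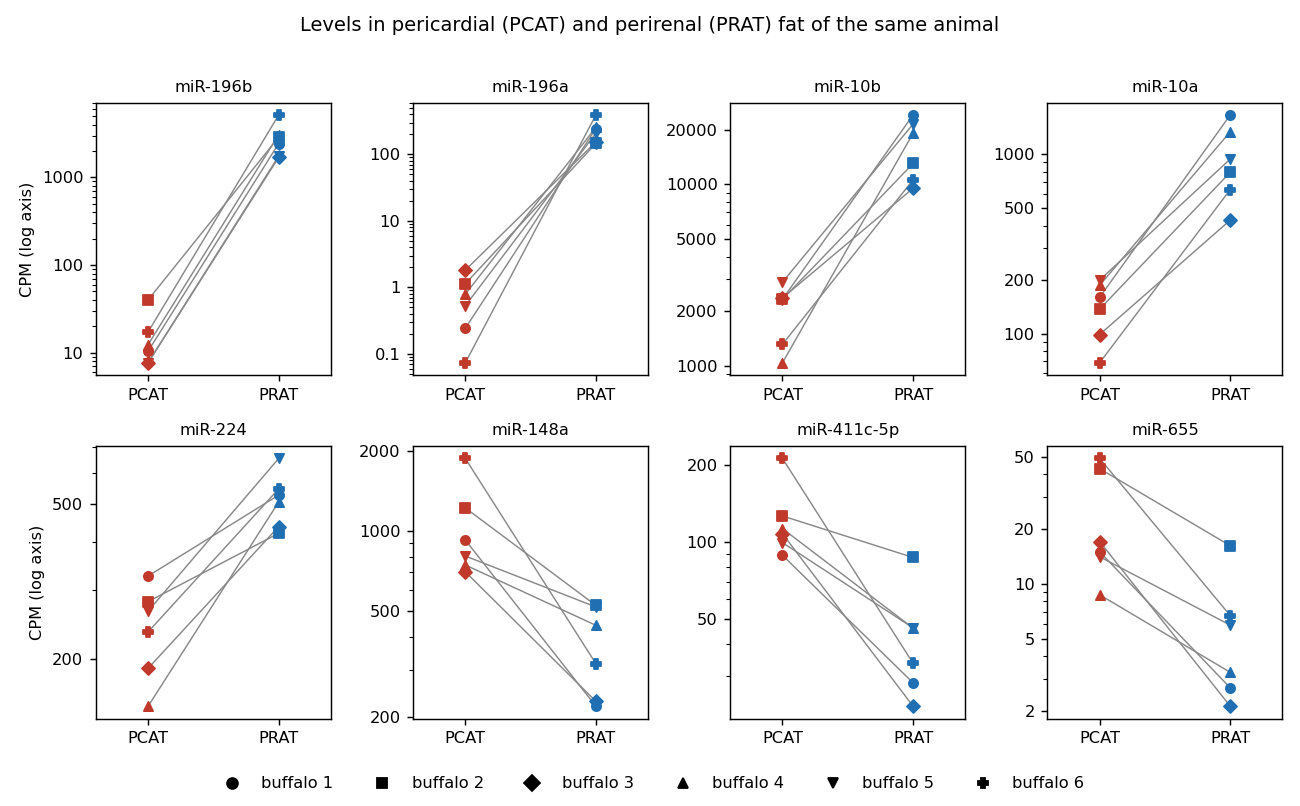
CPM (log axis) of 8 called miRNAs in PCAT (red, left) and PRAT (blue, right), 1 marker shape per buffalo, with a line joining the libraries of 1 animal. The 6 lines run the same way in every panel, and the gap is widest for miR-196b and miR-196a.

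Among the 6 depots pericardial fat was at the bottom for all 4 tested HOX-cluster miRNAs. With all 36 libraries scaled together, miR-196b averaged 14.9 ± 11.1 CPM in PCAT (SD, n = 6), against 2629 ± 1198 CPM in PRAT. The next lowest mean was that of omental fat, 85.9 ± 156 CPM, whose 6 libraries ran from 5.48 to 401 CPM and overlapped the PCAT range. That mean rests on the omental library of buffalo 2, at 401 CPM, and without it the other 5 averaged 23.0 ± 25.9 CPM. MiR-10b averaged 1916 ± 631 CPM in PCAT, against 15144 ± 5752 CPM in PRAT, with omental fat next to PCAT at 6180 ± 2638 CPM. Omental and PCAT libraries did not overlap for miR-10b, whose lowest omental level was 2565 CPM, above the highest PCAT level of 2397 CPM. Perirenal fat had the highest mean of the 6 depots for miR-10b only. For both miR-196 genes inguinal fat was above PRAT, and for miR-10a sternal fat was the highest at 1493 ± 676 CPM.

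**Figure D3:**
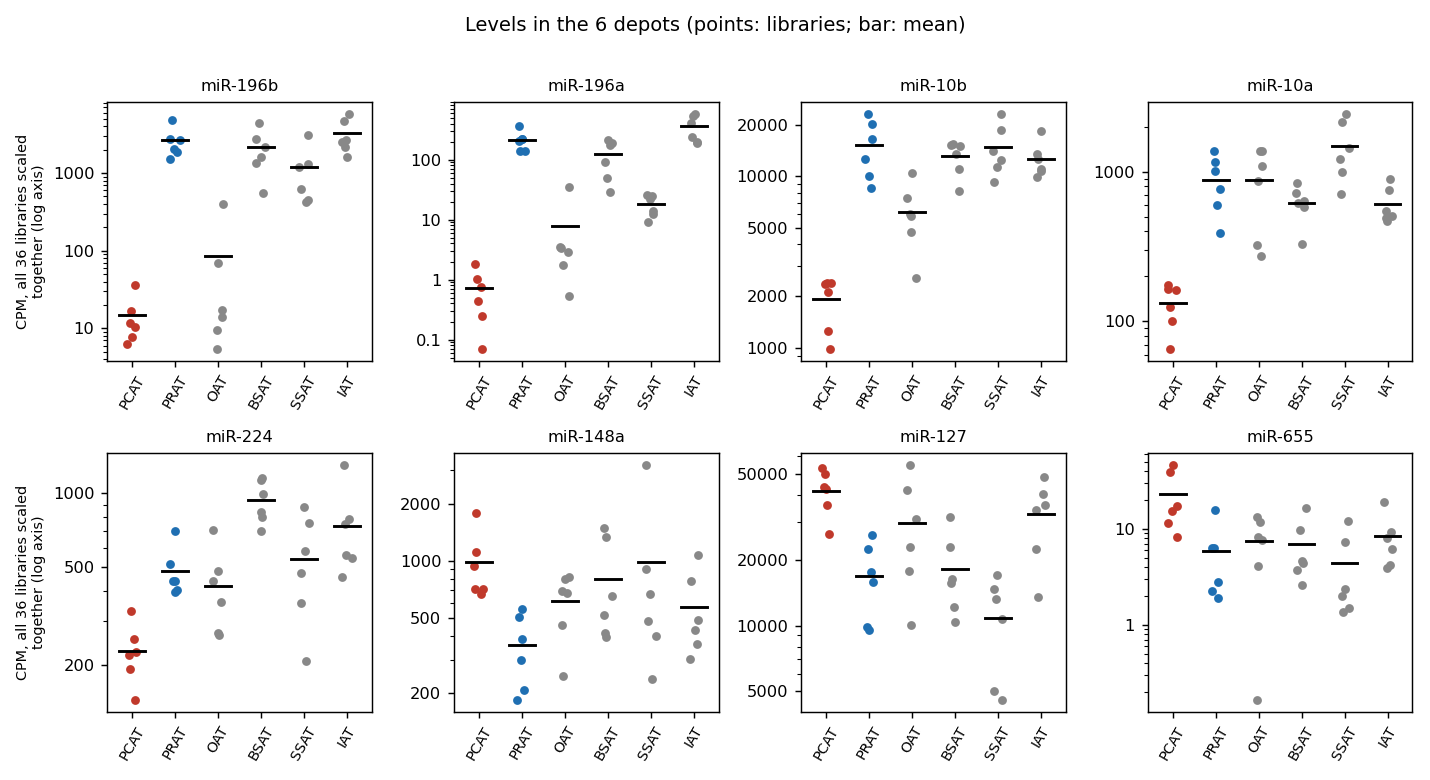
CPM (log axis, all 36 libraries scaled together) of 8 miRNAs in PCAT, PRAT, omental (OAT), back (BSAT), sternal (SSAT) and inguinal (IAT) fat. Points are the 6 libraries of a depot and bars their mean, and PCAT has the lowest mean for the miR-196 and miR-10 genes and for miR-224 and the highest for miR-148a, miR-127 and miR-655.

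An abundant candidate locus, NC_059159.1_8293, fell beside the HOX-cluster miRNAs. Its lowest, median and highest levels were 297, 753 and 863 CPM in PCAT, against 1619, 3502 and 6494 CPM in PRAT, with no overlap (−2.51 ± 0.31, adjusted p = 0.00198). It was the only row besides the 4 HOX-cluster miRNAs that was called with each animal left out in turn. Its counts were between 17.0% and 78.0% of those of miR-10b in the same library, with a median of 27.2%. At the 78.0%, PCAT of buffalo 4 had 9233 reads of the locus, 11840 of miR-10b and 2114 of miR-10a. At the 17.0%, PRAT of buffalo 3 had 22876, 134446 and 6060 in that order. Whether the locus goes with either miR-10 gene was not tested. The table does not pair the identifier with a miRNA name. Another candidate locus, NC_059158.1_6728, was rarer, at 1.03, 3.17 and 4.38 CPM in PCAT, against 7.62, 13.2 and 17.8 CPM in PRAT. It too fell without overlap (−2.12 ± 0.35, adjusted p = 0.0163), but missed the threshold without buffalo 3, 4 or 5.

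In the other direction, the miRNAs of the imprinted DLK1-DIO3 region were shifted towards pericardial fat as a group, although only 2 of them were called. The list held 59 names, of which 37 passed the filter on low counts. MiR-655 and miR-411c-5p rose in PCAT, 5.41% of the 37 beside 0.730% of all rows tested, and none fell. The log2 difference was above 0 for 36 of the 37 tested members, against 301 of the 548 rows tested, and its median was 1.18, beside 0.08 over all rows tested. The range ran from −0.07 for miR-323 to 2.18 for miR-377. The count above 0 was 36 of 37 with RLE factors and 37 of 37 with library totals. Without the filter, 51 of the 55 members with any count were above 0, with a median of 1.18. An unadjusted p under 0.05 was reached by 23 of the 37, or 62.2%, against 22.6% of all rows tested. The list holds miRNA names only, while all rows tested include candidate loci. Of the 343 tested miRNA names, 4 were called higher, 204 were above 0 and 86 had an unadjusted p under 0.05. Their median was 0.19.

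MiR-655 had a lowest, median and highest level of 8.70, 16.0 and 48.8 CPM in PCAT, against 2.12, 4.59 and 16.2 CPM in PRAT. It was higher in PCAT in 6 of 6 animals, by 2.06 ± 0.36 (adjusted p = 0.0221). The groups overlapped because buffalo 2 was high in both depots, at 42.9 CPM in PCAT and 16.2 CPM in PRAT. The call was lost without buffalo 1, 3 or 4. It was also lost with no replicate block, with all 36 libraries and in each setting that used the library letter. In all, 9 of 19 other settings called miR-655. MiR-411c-5p, read from the 5′ arm of a miR-411 hairpin, had 88.6, 110 and 212 CPM in PCAT, against 22.8, 39.8 and 87.0 CPM in PRAT. Its groups did not overlap, with buffalo 2 again the highest in PRAT, and the difference was 1.58 ± 0.33 (adjusted p = 0.0439). Its call held without buffalo 2 and was lost without any of the others. The 3′ arm of the same hairpin differed by 1.16, with an adjusted p of 0.281.

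The next members by p stayed just above the threshold. MiR-369-3p had 16.4, 20.9 and 32.9 CPM in PCAT, against 3.57, 6.68 and 16.4 CPM in PRAT (1.74 ± 0.40, adjusted p = 0.0534). MiR-493 had 178, 196 and 232 CPM in PCAT, against 67.7, 81.3 and 147 CPM in PRAT (1.16 ± 0.27, adjusted p = 0.0534). Both were higher in PCAT in 6 of 6 animals, and the groups did not overlap for miR-493. In all, 18 of the 37 had an adjusted p from 0.05 to under 0.1, and 17 had 0.1 or above.

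MiR-127, the most abundant member and one that pairs perfectly with the transcript of the paternally expressed RTL1 gene, was chosen for mention after its values were seen. It had 29099, 46044 and 55422 CPM in PCAT, against 10416, 17942 and 27153 CPM in PRAT. The groups did not overlap and PCAT was higher in 6 of 6 animals, but the difference of 1.35 ± 0.34 had an adjusted p of 0.0563. MiR-127 made up between 88.4% and 93.1% of the summed CPM of the tested members in each library. With it left out, the others still summed to between 3631 and 4311 CPM in PCAT, against 1216 to 3338 CPM in PRAT, and PCAT was higher in 6 of 6 animals.

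The animals were unequal in this shift. PCAT was the higher depot for 33 of the 37 members in buffalo 1, 20 in buffalo 2, 33 in buffalo 3, 32 in buffalo 4, 34 in buffalo 5 and 37 in buffalo 6. The median difference within an animal was 0.04 in buffalo 2, and between 0.76 in buffalo 4 and 2.07 in buffalo 6 in the others. Without buffalo 2, 18 of 37 members were called higher, among 52 calls over all rows, and the median was 1.48. Without any 1 of the other animals, 0 or 1 member was called and the median lay between 1.05 and 1.22. Both libraries of buffalo 2 carried the letter A. Among letter B libraries alone the median of the same members was 1.74, with 16 called higher among 31 calls over all rows. Among letter A libraries alone it was 0.46, with 0 called at an adjusted p under 0.05. With the letter as a covariate the median was 1.27 and 0 were called. Over all 12 libraries limma called 4 higher and DESeq2 20 higher, among 21 and 92 calls over all rows. The part of the letter in the size of the shift was not tested.

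**Figure D4:**
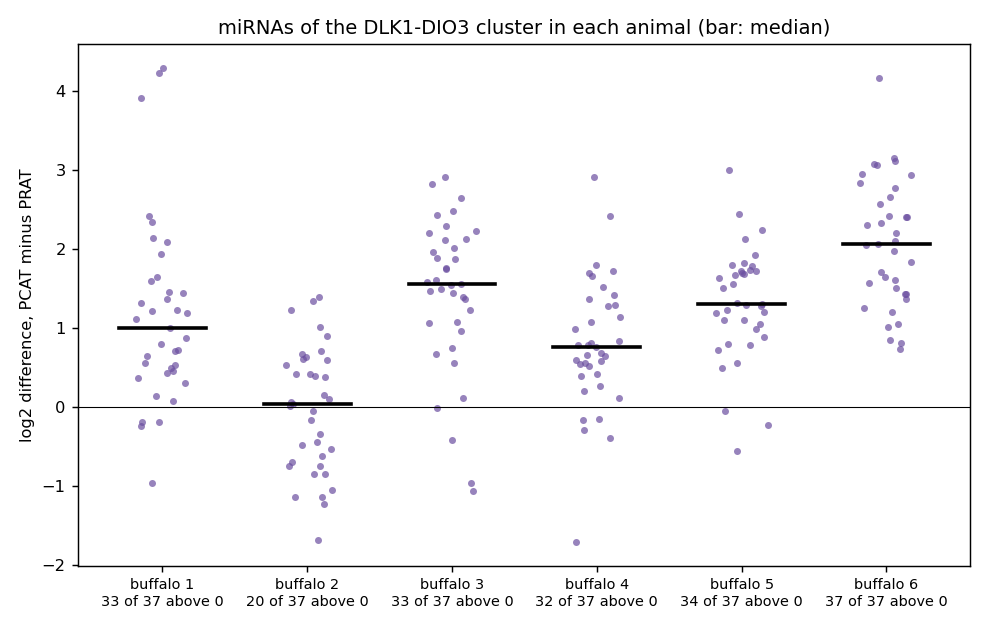
Log2 difference, PCAT minus PRAT (vertical), of each of the 37 tested DLK1-DIO3 miRNAs in each of the 6 buffaloes. Points are miRNAs and bars the median of an animal, which is 0.04 in buffalo 2 and between 0.76 and 2.07 in the other animals.

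Pericardial fat also had the highest mean of the 6 depots for 34 of the 37 tested members, and perirenal fat the lowest for 4. MiR-127 averaged 41756 ± 9670 CPM in PCAT (SD, n = 6), against 16912 ± 6658 CPM in PRAT. Inguinal fat followed PCAT with 32423 ± 12500 CPM and omental fat with 29763 ± 16524 CPM, and both overlapped the PCAT libraries.

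MiR-148a, a miRNA that promotes adipocyte differentiation in human and mouse cells, was the most abundant of the rows that rose. Its lowest, median and highest levels were 702, 865 and 1871 CPM in PCAT, against 220, 380 and 525 CPM in PRAT. It was 2.77-fold higher in PCAT without overlap and in 6 of 6 animals (1.47 ± 0.32, adjusted p = 0.0439). The highest PCAT level was that of buffalo 6. The call held without buffalo 2 and was lost without any of the others, with differences of 1.29 to 1.64 and adjusted p-values of 0.0408 to 0.126. It was also lost with all 36 libraries and in each setting that used the library letter. In all, 8 of 19 other settings called miR-148a. Its relatives in the miR-148 and miR-152 family, which share a seed, were also above 0: miR-148b at 0.42, miR-152 at 0.77 and miR-148c at 1.05, with none of these called. In the 6 depots PRAT had the lowest mean of miR-148a, 356 ± 154 CPM, while PCAT at 985 ± 428 CPM stood beside sternal fat at 984 ± 1115 CPM. The sternal mean rests on buffalo 1, at 3212 CPM, and without it the other 5 sternal libraries averaged 538 ± 256 CPM.

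MiR-224, which restrains adipocyte differentiation in mouse cells, fell. It had 152, 250 and 327 CPM in PCAT, against 420, 516 and 653 CPM in PRAT, a 2.17-fold difference without overlap (−1.12 ± 0.25, adjusted p = 0.0439). PCAT had the lowest mean of the 6 depots, 227 ± 62.9 CPM, and PRAT a middle one, 482 ± 115 CPM. This call too held without buffalo 2 and was lost without any of the others. It was also lost with library totals alone and without the filter on low counts. The same held with the letter as a covariate, within either letter and in the 3 animals whose libraries share a letter. In all, 8 of 19 other settings called it.

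The wider lists of miRNAs with a known part in fat cells did not move as lists. Of 18 tested miRNAs that promote adipogenesis, 8 were above 0 and 10 below, with a median of −0.18. Of these, edgeR and limma called miR-148a alone, and DESeq2 called miR-148a and miR-335, both higher in PCAT. Of 16 that restrain it, 4 were above 0 and 12 below, with a median of −0.09. Here edgeR and limma called miR-224 alone, and DESeq2 called miR-224, miR-138 and miR-27a-5p, all lower in PCAT. After miR-148a, the smallest edgeR p among the promoting miRNAs was that of miR-335, whose host gene MEST is imprinted. It had 3.90, 7.69 and 19.4 CPM in PCAT, against 0.280, 2.80 and 11.5 CPM in PRAT (1.66 ± 0.61, adjusted p = 0.139). Of 19 tested miRNAs linked to brown and beige fat, 9 were above 0 and 10 below, a median of −0.18, and 0 called by edgeR, DESeq2 or limma at an adjusted p under 0.05. An unadjusted p under 0.05 was reached by 1 of them, miR-193b, which promotes brown fat differentiation in mouse cells, with levels of 37.9, 46.8 and 75.8 CPM in PCAT, against 18.1, 27.9 and 42.8 CPM in PRAT (0.79 ± 0.26, adjusted p = 0.114).

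No list holds markers of pericardial or perirenal fat as such, so the depot labels were set against miRNAs of the organs beside them. Skeletal and heart muscle miRNAs were scarce in both depots. The 6 names found summed to 67.4, 74.7 and 247 CPM (lowest, median, highest) in PCAT, against 20.7, 40.0 and 91.7 CPM in PRAT, and the sum was higher in PCAT in 5 of 6 animals. MiR-206, made by skeletal muscle, had 23.9, 40.2 and 191 CPM in PCAT, against 3.17, 20.6 and 44.0 CPM in PRAT (1.70 ± 0.66, adjusted p = 0.162). PCAT of buffalo 6 was the highest, and in buffaloes 2 and 3 PRAT was the higher depot. MiR-499, carried by a slow myosin gene, differed by 0.54 ± 0.45, miR-133a by 0.90 ± 0.86 and miR-133b by −0.63 ± 1.28, and edgeR and limma called 0 of the 4 tested, with 1 at an unadjusted p under 0.05, miR-206, which DESeq2 called higher. The median of the list was 0.72 over all libraries and −0.38 among letter B libraries alone, a fit without pairing. In all other settings it was above 0, from 0.32 without buffalo 2 to 1.37 without buffalo 6, with 1.14 among letter A libraries. As the sign was not kept throughout and edgeR called 0 of the 4, no firm direction is given. The heart miRNA miR-208a had 3 reads in PCAT of buffalo 1 and 0 in the other PCAT libraries, against 2 and 1 reads in PRAT of buffaloes 5 and 6 and 0 elsewhere. Its relative miR-208b had 0 to 15 reads in PCAT, against 0 to 9 in PRAT. MiR-1, the leading muscle miRNA, is not analysed here.

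Of the 4 kidney miRNAs tested, 3 were below 0 and 1 above. The 4 names of the list summed to 1395, 3792 and 5402 CPM in PCAT, against 2831, 6563 and 11587 CPM in PRAT, and the sum was lower in PCAT in 6 of 6 animals although the ranges overlapped. MiR-204 made up from 49.9% to 88.7% of that sum in PCAT, against 61.7% to 89.5% in PRAT. Without it the sum was 611 to 1037 CPM in PCAT, against 1083 to 2020 CPM in PRAT, and again lower in PCAT in 6 of 6 animals. MiR-194, which kidney and gut epithelium share with its cluster partner miR-192, had 60.3, 191 and 256 CPM in PCAT, against 206, 413 and 446 CPM in PRAT (−1.17 ± 0.35, adjusted p = 0.0908). MiR-204 differed by −0.92 ± 0.47, miR-192 by −0.60 ± 0.27 and the rare miR-215 by 0.82 ± 0.33, and edgeR and limma called 0 of the 4. An unadjusted p under 0.05 was reached by 2 that went opposite ways, miR-194 lower and miR-215 higher in PCAT. MiR-215 was higher in 6 of 6 animals without overlap, at 2.59 to 3.89 CPM in PCAT, against 1.26 to 2.37 CPM in PRAT. DESeq2 called 1 of the 4 lower, miR-194. MiR-204 also promotes adipogenesis in human cells, so its level is not a measure of kidney cells alone. Its mean was 4866 CPM in PRAT, below those of sternal, omental and inguinal fat at 11613, 6713 and 5284 CPM. Whether muscle or kidney cells had a part in any called difference was not tested.

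MiR-122, the main miRNA of the liver, was lower in PCAT than in PRAT. It had 0, 0.442 and 10.5 CPM in PCAT, against 1.34, 4.24 and 300 CPM in PRAT, and was lower in PCAT in 6 of 6 animals (−3.85 ± 0.70, adjusted p = 0.0263). Buffalo 6 had the highest level in both depots, and next to its 300 CPM in PRAT the next level was 21.0 CPM in PRAT of buffalo 5. The call was lost without buffalo 3, 4, 5 or 6. The difference was −5.43 among letter B and −1.96 among letter A libraries, neither of them called. PCAT was not set apart by a low level among the 6 depots. With all 36 libraries scaled together, miR-122 ran from 0 to 10.1 CPM in PCAT and from 1.21 to 283 CPM in PRAT. Back fat ran from 0.0802 to 0.810 CPM, sternal fat from 0 to 1.05, inguinal fat from 0 to 11.6 and omental fat from 0.0861 to 29.8. MiR-375 of the pancreatic islets, the other name of that list, differed by −0.09 ± 0.87.

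The 6 lists of other cell types held 34 tested miRNAs, of which edgeR and limma called 0 at an adjusted p under 0.05. In edgeR 7 of the 34 had an unadjusted p under 0.05, beside 124 of all 548 rows tested. DESeq2 called 4 of the 34, all lower in PCAT, beside 92 of all rows in either direction. These 4 were miR-138, miR-150, miR-200c and miR-342. Among leukocyte miRNAs the smallest p-values belonged to miR-342 (−0.89 ± 0.34, adjusted p = 0.161) and miR-150 of lymphocytes (−1.06 ± 0.44, adjusted p = 0.185). MiR-150 had 2630, 4583 and 7883 CPM in PCAT, against 3719, 10577 and 23135 CPM in PRAT, and its lead made the sum of the list lower in PCAT in 5 of 6 animals while 5 of its 8 members were above 0. The red cell list of 3, led by miR-451, was below 0 throughout (median −0.62). MiR-451 had 25600, 37966 and 95654 CPM in PCAT, against 42970, 71974 and 111355 CPM in PRAT (−0.62 ± 0.35, adjusted p = 0.352). Both arms of miR-126, the endothelial miRNA, differed by −0.33 ± 0.22 for miR-126-3p and −0.10 ± 0.40 for miR-126-5p.

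In the list of smooth muscle and stroma, 5 of 7 members were above 0 (median 0.55), but the summed CPM was lower in PCAT in 5 of 6 animals since miR-143, its most abundant member, differed by −0.62. MiR-199b of stromal cells had 413, 461 and 517 CPM in PCAT, against 255, 273 and 351 CPM in PRAT, without overlap (0.70 ± 0.22, adjusted p = 0.0981). Epithelial and mesothelial miRNAs had a median of −0.12 and varied widely between libraries. Their sum was 6.48, 313 and 511 CPM in PCAT, against 19.3, 108 and 2926 CPM in PRAT. It was higher in PCAT in 4 of 6 animals, and the highest value was PRAT of buffalo 2. The neural list had 4 of 8 members above 0 and a median of −0.15.

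**Figure D5:**
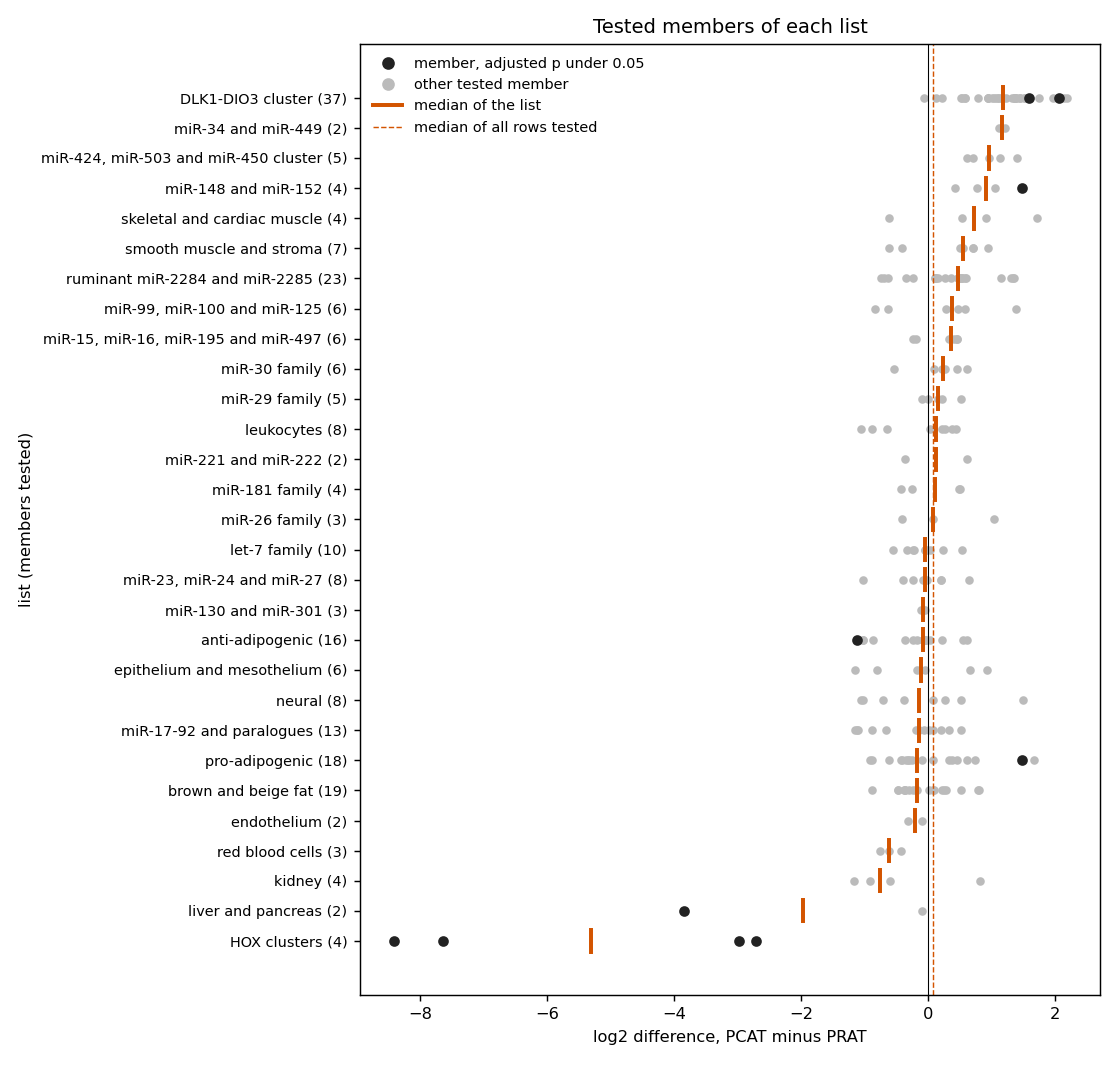
Log2 difference, PCAT minus PRAT (horizontal), of the tested members of each list (vertical, with the number tested in brackets). Black points are members with an adjusted p under 0.05, grey points the other members, orange bars the median of the list and the dashed line the median of all rows tested. The HOX list lies at a median of −5.32 and the DLK1-DIO3 list at 1.18.

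Outside these groups edgeR and limma called 0 members of the lists that follow over all 12 libraries. DESeq2 called miR-34a, miR-2285bb and miR-2285bz higher in PCAT. It called miR-92a, miR-92b, miR-27a-5p and let-7e lower. Its calls of leukocyte miRNAs, of the miR-424 cluster and of miR-99b are given with those lists. The miR-424, miR-503 and miR-450 cluster of the X chromosome had 5 of 5 tested members above 0 with a median of 0.95. The median of the members was 1.72 among letter B libraries, with 3 called higher, 0.13 among letter A libraries and 0.37 with no replicate block, so its size depends on the libraries used. Of these members, edgeR and limma called 0, with 2 at an unadjusted p under 0.05, and DESeq2 called 2 higher, miR-450a and miR-450b. Its miR-450a had 214, 343 and 451 CPM in PCAT, against 72.6, 153 and 474 CPM in PRAT (1.12 ± 0.35, adjusted p = 0.0961). In buffalo 2, 0 of the 5 were higher in PCAT, and without this animal 2 were called higher. MiR-34a, which p53 switches on, and miR-449a of the same family were at 1.21 ± 0.36 (adjusted p = 0.0908) and 1.11 ± 0.50 (adjusted p = 0.227). Of 23 tested members of the ruminant miR-2284 and miR-2285 families, 18 were above 0 with a median of 0.46. Here miR-2285bz came first by p, at 1.36 ± 0.37 (adjusted p = 0.0703). The miR-17-92 cluster and its paralogues had a median of −0.15 and contained miR-92a, at 225, 351 and 672 CPM in PCAT, against 514, 842 and 1673 CPM in PRAT (−1.16 ± 0.31, adjusted p = 0.0650). The let-7, miR-23/24/27, miR-26, miR-130/301, miR-181 and leukocyte lists had medians from −0.08 to 0.12, within the shift that scaling makes, and no direction is given for them as lists. Within the let-7 list, let-7e was lower in PCAT in 6 of 6 animals (−0.56 ± 0.20, adjusted p = 0.139). The leukocyte median varied with the libraries used. It was −0.61 with no replicate block, −1.13 among letter B libraries and 0.42 among letter A libraries. MiR-221 and miR-222 differed by 0.61 ± 0.72 and −0.37 ± 0.81. The miR-29, miR-30, miR-15/16 and miR-99/100/125 lists had medians of 0.15, 0.24, 0.36 and 0.38, beside 0.19 over all tested miRNA names. Of their 23 tested members, edgeR and limma called 0, with 2 at an unadjusted p under 0.05, and DESeq2 called miR-99b lower.

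The 5 most abundant miRNAs of the 12 libraries were let-7c, let-7f, miR-451, miR-26a and miR-26c, and edgeR, DESeq2 and limma called 0 of them at an adjusted p under 0.05, with 0 also at an unadjusted p under 0.05. MiR-26a and miR-26c, which are near-identical, changed places between libraries. MiR-26a took 92.0%, 11.2%, 10.2%, 12.4%, 16.6% and 97.2% of the reads of the pair in PCAT of buffaloes 1 to 6, against 11.5%, 94.3%, 92.6%, 97.0%, 4.95% and 13.2% in PRAT. The share stood either at or below 16.6% or at or above 92.0%, and it did not follow the depot. The sum of the pair was steadier, from 78387 to 123654 CPM in PCAT, against 84750 to 149323 CPM in PRAT. The levels of miR-26a and miR-26c taken singly are therefore uncertain.

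The remaining called rows were rarer or outside the lists. MiR-6715 fell, with 13.4, 17.9 and 47.5 CPM in PCAT, against 22.9, 142 and 567 CPM in PRAT (−2.60 ± 0.54, adjusted p = 0.0439). It was lower in PCAT in 6 of 6 animals, with overlap because PRAT of buffaloes 6 and 3, at 22.9 and 47.4 CPM, lay below PCAT of buffalo 2 at 47.5 CPM, and its call was lost without buffalo 1, 3, 4 or 5. The other 5 called rows were outside the rule for naming, and they were chosen for mention after their values were seen. MiR-3578 rose, at 3.40, 5.54 and 11.8 CPM in PCAT, against 0.346, 0.777 and 2.37 CPM in PRAT (2.71 ± 0.51, adjusted p = 0.0285). MiR-1949 fell (−2.13), as did the candidate loci NC_059159.1_8805 (−2.70), NC_059160.1_12323 (−1.81) and NC_059173.1_36242 (−1.41). Each of these 5 lost its call without 3 or more of the animals taken singly.

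Of the rows that edgeR did not call, miR-139 had the largest difference among the most abundant, and it was likewise picked out after its values were seen. It had 1641, 7351 and 23419 CPM in PCAT, against 4774, 39841 and 73771 CPM in PRAT, and was lower in PCAT in 6 of 6 animals. The ranges overlapped, and the difference of −2.02 ± 0.49 had an adjusted p of 0.0563. Limma did not call miR-139 either, while DESeq2 did, as did edgeR with RLE factors, without the filter, with all 36 libraries and the animal as a block, or without buffalo 2 or 6. Of 23 hairpins with both arms tested, the 5′ and 3′ arms differed in the same direction in 16.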

How the data were processed

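Per the labels, RNA was extracted with a lipid tissue kit from each depot of each animal, and libraries were made with a TruSeq RNA kit. The authors deposited whole read counts per row and library, not normalized, and beside them RPM, which equalled counts per 1000000 of the library total to within 4.79e-06. No source used here gives the aligner, the miRNA caller or the genome build. The submitters' processing notes list DESeq2 1.24.0, with no role. The table names rows after bovine miRNAs or by locus identifiers.

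Counts of the 12 libraries were tested in R 4.3.3 with the two-sided quasi-likelihood test of edgeR 4.0.16 (TMM factors, filterByExpr with a minimum count of 10, the animal as a block, 5 residual degrees of freedom). p-values were adjusted by Benjamini-Hochberg over all 548 rows, and 0.05 was the threshold. The SE is the size of the log2 difference over the square root of F. Fits were tested on simulated data. The pairing comes from the labels, which give both depots of each animal 1 number. After the depot mean was taken off, same-numbered libraries had a mean correlation of 0.256, above 0.1 in 6 of 6 pairs. The mean of −0.0513 between animals largely follows from that centring and is no separate baseline. Of the 6 PCAT libraries, 4 were closest to the PRAT library of their own number. PCAT of buffaloes 1 and 5 were closest to PRAT of buffaloes 5 and 1, which carried the same letter. The closest libraries differed by a chi-square of 826 per degree of freedom, far above sampling noise.

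Named miRNAs were those called with at least 10 CPM in the higher depot and 1 direction in at least 5 of 6 animals (up to 12 per direction, and 2 candidate loci), every tested member of the HOX, muscle and kidney lists, the 5 most abundant miRNAs, and 2 to 4 members with the smallest p of each of the other lists, 29 lists in all. The comparison, the lists and this rule were chosen with earlier results of these data known, so no list is independent support. Lists are described by counts and medians without a test. Levels in the 6 depots were computed with TMM factors over 36 libraries. Alternatives used RLE factors, library totals, other filters, no block, 36 libraries, the library letter, each animal left out, limma 3.58.1 on log2(RPM + 1), DESeq2 1.42.0, and miR-26a and miR-26c summed.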

Additional observations from a re-analysis of the deposited data

Results flagged for a closer look

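The 6 libraries of each depot were checked for 1 that stands far from the other 5, in the levels of 77 named rows and in the library totals. Of these 156 groups, 9 held such a library. Chance gives about 1 in 20 groups. Low single libraries were PCAT of buffalo 6 for the candidate locus NC_059158.1_6728 (1.03 CPM, others 2.81 to 4.38), PCAT of buffalo 1 for miR-1949 (0.243 CPM, others 0.737 to 1.26), PRAT of buffalo 3 for miR-194 (206 CPM, others 362 to 446), PRAT of buffalo 1 for miR-301a (36.6 CPM, others 46.7 to 52.9) and PRAT of buffalo 6 for the candidate locus NC_059160.1_12323 (0 CPM, others 2.71 to 7.12). High single libraries were PCAT of buffalo 1 for miR-193b (75.8 CPM, others 37.9 to 49.0), PRAT of buffalo 2 for miR-450b (68.5 CPM, others 9.84 to 18.0), and PRAT of buffalo 6 for let-7c (84409 CPM, others 27633 to 40709) and miR-181d (44.0 CPM, others 15.2 to 22.5). PRAT of buffalo 6 thus appeared in 3 of the 9.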

How the results depend on the processing

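The count of 17 calls moved to 30 with RLE factors (5 higher, 25 lower in PCAT), 46 without the filter on low counts (26 higher), 26 with all 36 libraries and the animal as a block, 6 with the library letter as a covariate, 31 among letter B libraries, 1 among letter A libraries, 1 in the 3 animals whose libraries share a letter, and 92 with DESeq2 (43 higher). Leaving out 1 animal gave 6 to 52. The RLE, DESeq2 and buffalo 2 counts included all 17, and the cause of the moves was not tested. The animal pairs the libraries, and with no replicate block 19 rows were called, 13 of them among the 17. The other settings gave 13 to 21. The called differences kept their sign in all 315 values recomputed and their side of the threshold in 197. The 4 HOX-cluster miRNAs and NC_059159.1_8293 missed it only among letter A libraries or in the 3 animals. The DLK1-DIO3 median moved to 0.46 among letter A libraries. Chosen after seeing the data, the means without 1 sternal or 1 omental library stand in the report. The depth limits rare rows such as miR-196a in PCAT, and counts of near-identical miRNAs may be split.

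Differences with a changed sign all belonged to miRNAs that were not called. Letter B libraries gave −0.86 for miR-133a, −0.62 for miR-26c, 0.67 for miR-26a, 1.31 for miR-375 and −0.93 for miR-221. Letter A libraries gave 0.068 for let-7f, 0.061 for miR-126-5p, 0.77 for miR-222 and 0.053 for miR-130a. The 3 animals with 1 letter gave 0.12 for miR-451, 0.010 for miR-126-3p, 0.055 for miR-126-5p, 1.57 for miR-375, −0.021 for miR-106b and 0.029 for miR-130a. The letter as a covariate gave 0.053 for miR-222. With 36 libraries, miR-26c was at −0.18 (block) and miR-375 at 0.58 (no block). MiR-375 was at 0.46 with no replicate block and 0.093 with limma, and miR-130a at 0.024 with library totals and 0.026 with limma. Leaving out 1 animal gave −0.35 to 2.21 for miR-26c, −1.41 to 0.51 for miR-26a, −0.46 to 0.17 for miR-126-5p, −0.67 to 0.50 for miR-375, −0.96 to 0.11 for miR-222, −1.53 to 0.085 for miR-133b and −0.18 to 0.10 for miR-130a.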

Other observations

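Of the candidate loci, 3 with neighbouring identifiers are given here, picked out after their values were seen. NC_059176.1_40495, one of the most abundant candidate loci, had a lowest, median and highest level of 20234, 28584 and 33696 CPM in PCAT, against 7832, 13278 and 24216 CPM in PRAT. It was higher in PCAT in 6 of 6 animals, by 1.09 ± 0.29 (adjusted p = 0.0675). NC_059176.1_40497 had 2085, 3091 and 4024 CPM in PCAT, against 928, 1346 and 3365 CPM in PRAT (1.02 ± 0.37, adjusted p = 0.139). The rare NC_059176.1_40486 had 2.95, 4.98 and 6.81 CPM in PCAT, against 0.346, 2.08 and 4.14 CPM in PRAT (1.50 ± 0.44, adjusted p = 0.0908). Of the 12 tested candidate loci whose identifiers begin with NC_059176.1_4, these 3 included, 8 were above 0 and 4 below, among them NC_059176.1_40521 at 0.58 and NC_059176.1_40580 at −0.41. EdgeR called 0 of the 12 at an adjusted p under 0.05, as did limma. DESeq2 called NC_059176.1_40486 and NC_059176.1_40495 higher and NC_059176.1_41531 lower, and letter B libraries alone gave calls of NC_059176.1_40495 and NC_059176.1_40497 in edgeR. Without the filter edgeR called NC_059176.1_40495, with all 36 libraries and the animal as a block NC_059176.1_40486, with RLE factors NC_059176.1_41531, and without buffalo 2 these 4. An unadjusted p under 0.05 was reached by 4 of the 12, and the table does not pair them with a miRNA name.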
